A study of Sus scrofa with 8 samples.

Results

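Axon guidance ligands and receptors were followed in heart tissue of miniature pigs given doxorubicin, the anthracycline chemotherapy drug whose use is limited by damage to the heart. They were the genes of the count table whose symbols begin as those of semaphorins, plexins, neuropilins, ephrins, Eph receptors, slits, roundabouts, netrins or UNC5 receptors, which gave 70 of 31014 listed genes, 35 of them ligands and 33 receptors. The symbol rule also took in UNC50 and UNC5CL, which share letters with the UNC5 receptors but are neither ligands nor receptors of this kind. RNA from 5 wild-type hearts given doxorubicin was set against RNA from 3 wild-type hearts given vehicle. The dose, schedule, interval, age and sex are not given in the labels, which also do not say that each library came from a separate animal. All p-values below therefore measure only the spread between these libraries, which may be in part technical.

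Guidance ligands were named for steering growing axons, but the same proteins pattern vessels and the heart. Class 3 semaphorins are secreted and bind neuropilins, which signal through plexins, while most other semaphorins are membrane-bound and bind plexins directly. Ephrins are held on the cell surface and act on Eph receptor tyrosine kinases of neighbouring cells, slits act on roundabouts, and netrins act on DCC, neogenin and UNC5 receptors. In the vascular system, ephrin-B2 marks arteries and EphB4 marks veins, and plexin-D1, neuropilin-1, ROBO4 and UNC5B are known endothelial receptors.

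The deposited counts summed to between 17442566 and 18267178 per doxorubicin library and between 16105242 and 17195538 per vehicle library. Levels below are CPM, reads scaled to TMM-adjusted library sizes, and the test is edgeR's quasi-likelihood test with Benjamini-Hochberg adjustment over all 14938 genes kept by a low-count filter; a gene passed at an adjusted p under 0.05. Doxorubicin 5 stood apart from its group, with a mean correlation of log CPM with the other doxorubicin libraries of 0.912, against 0.941 to 0.956 for those libraries and 0.974 to 0.977 within vehicle. The heart label was checked on cardiomyocyte genes, and the summed level of the 9 tested markers ran from 36277 to 66483 CPM in doxorubicin and from 66496 to 71653 CPM in vehicle libraries.

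Guidance genes that changed were nearly all higher after doxorubicin. Of the 58 that passed the filter, 16 were higher and 1 was lower in doxorubicin hearts, and 41 did not pass the test. Over all genes tested, 24.9% passed in either direction, 13.6% higher and 11.3% lower, so the guidance genes held 27.6% higher calls beside that 13.6% and 1.72% lower calls beside that 11.3%. The median log2 fold change was 0.44 over the 58 and 0.02 over all genes tested, and 45 of the 58 had a positive fold change. Without any scaling beyond library size, the split was 23 higher and 1 lower with a median of 0.80, while the median of all genes moved to 0.38 and 4093 of 4592 calls were higher. For 16 guidance genes every doxorubicin library lay above every vehicle library, and for 2 every one lay below, beside 17.1% and 17.8% of all genes tested. The 12 guidance genes that failed the filter are given by their reads further on. The filter's cut-off of 0.564 CPM applies to unadjusted library totals, a scale that differs from the TMM-adjusted CPM printed here. On that unadjusted scale, 8 of the 58 reached the cut-off in fewer than 3 vehicle libraries. EPHB3 was the only called gene among these 8. The counts therefore describe the tested genes only. In bulk tissue, more cells of a type and more RNA per cell cannot be told apart, and cell type markers that moved are given further on.

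**Figure D1:**
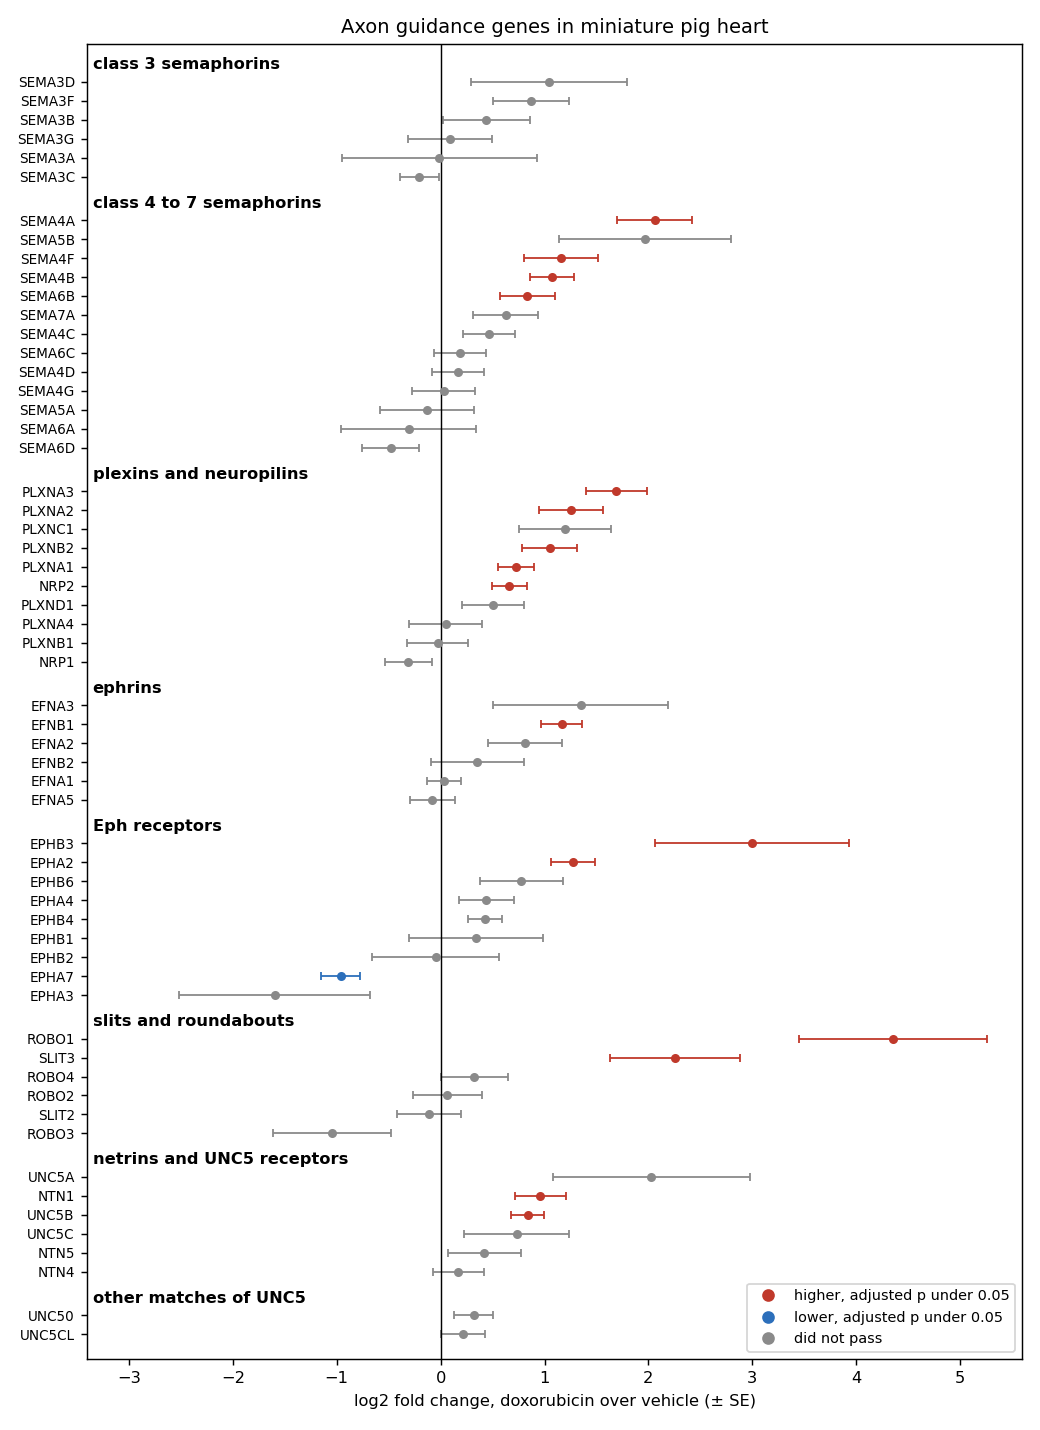
Log2 fold change of doxorubicin over vehicle (x axis) with SE for each of the 58 tested guidance genes, by family. Coloured points passed the test: 16 lie right of 0, and EPHA7 alone lies left of it.

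Both sides of the ligand and receptor pairs were represented. Among 30 tested ligands, 7 (23.3%) were higher and none was lower, with a median log2 fold change of 0.43. Among 26 tested receptors, 9 (34.6%) were higher and 1 (3.85%) was lower, with a median of 0.58. The shares of all genes tested were 13.6% higher and 11.3% lower. By family, the higher calls fell on 5 of 10 tested plexins and neuropilins (50%) and 4 of 13 class 4 to 7 semaphorins (30.8%). Eph receptors held 2 of 9 (22.2%), slits and roundabouts 2 of 6 (33.3%), and netrins and UNC5 receptors 2 of 6 (33.3%). The ephrins held 1 of 6 (16.7%), near the share of all genes tested. None of the 6 tested class 3 semaphorins passed. Each family held few tested genes, and differences between these shares, or from the share of all genes, were not tested.

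Some calls were firmer than others. With 3 vehicle libraries, leaving out vehicle 1, 2 or 3 reduced the calls over all genes from 3714 to 649, 1969 or 712, and of the 17 guidance genes called, 5, 8 or 5 still passed. EPHA2, EFNB1, PLXNA3 and SEMA4A passed whichever of the 8 libraries was left out. Their highest adjusted p, each without vehicle 1, was 0.0452, 0.0471, 0.0484 and 0.0484, only just under the threshold. Positions with the values are on the pig assembly Sscrofa11.1, and gene IDs are those of the deposited table. For each other called gene, the libraries without which it no longer passed are named with its values.

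**Figure D2:**
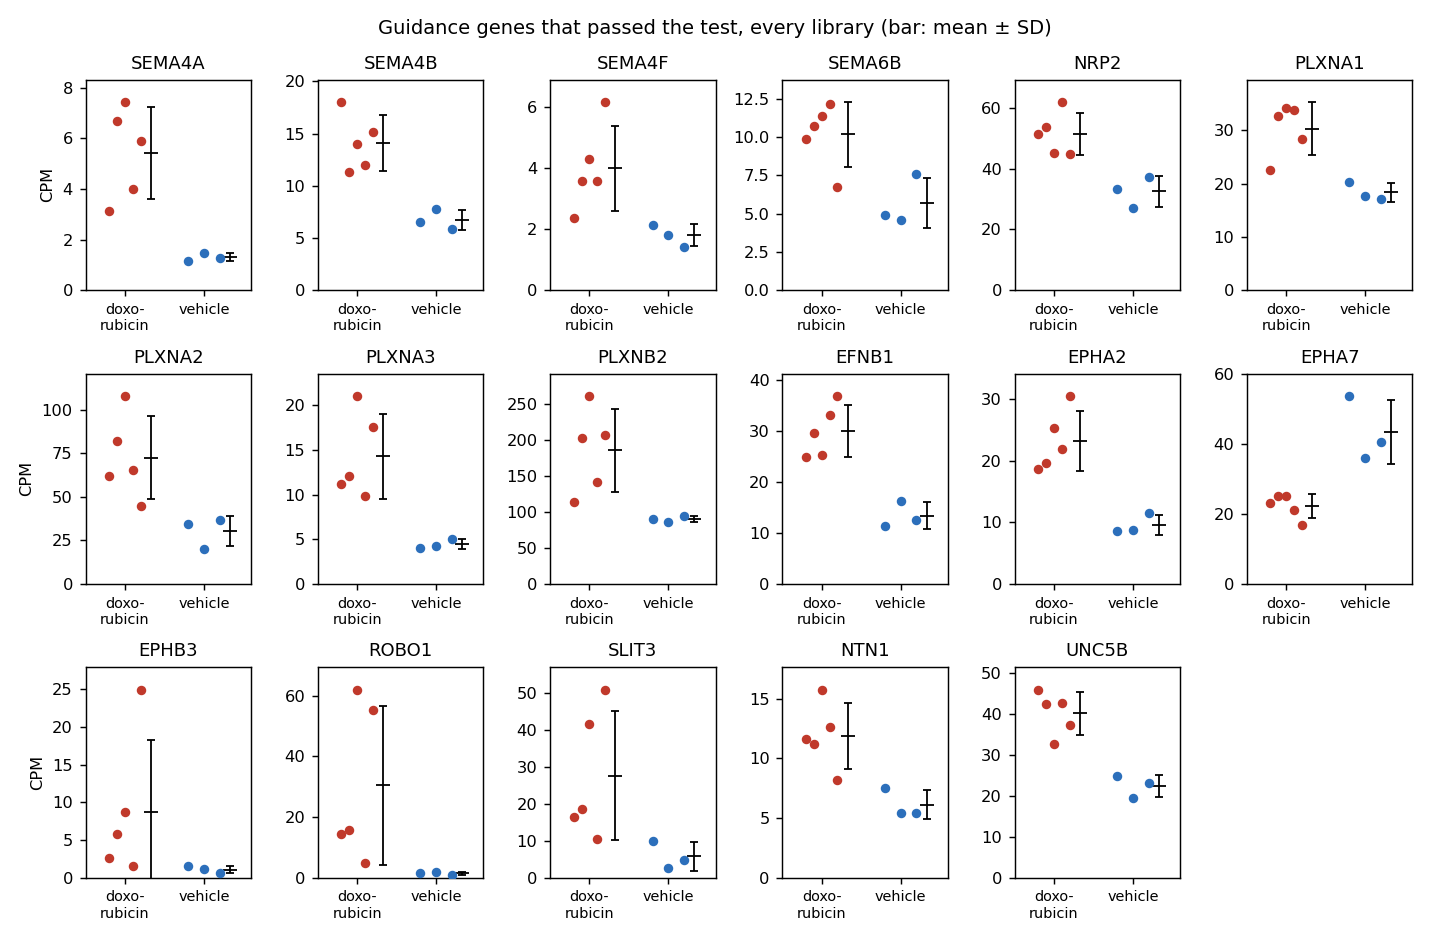
CPM (y axis, starting at 0, own scale per panel) in each doxorubicin library (left) and vehicle library (right) for the 17 guidance genes that passed the test, with group means and SD. Only SEMA6B has overlapping groups, and the SD bar of EPHB3 in doxorubicin, which 1 library widens, is drawn from 0.

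Plexins are large single-pass receptors whose cytoplasmic part acts on Ras-family GTPases, and class A plexins pair with neuropilins to receive class 3 semaphorins. Of the 4 class A plexins, 3 were higher in doxorubicin hearts, with a class median log2 fold change of 0.99. PLXNA3 (gene ID 100620331, chromosome X, 124982307 to 124997098) had 11.2, 12.02, 21.01, 9.804 and 17.5 CPM in doxorubicin 1 to 5, against 4.001, 4.23 and 5.05 CPM in vehicle 1 to 3. Every doxorubicin library was above every vehicle library, by 3.23-fold on the fitted scale (log2 fold change 1.69, SE 0.29, adjusted p = 0.00789), and leaving out any library kept the call. PLXNA2 (gene ID 100624791, chromosome 9, 134584760 to 134800471), which also binds class 6 semaphorins directly, had 61.7, 82.2, 108, 65.3 and 44.8 CPM in doxorubicin 1 to 5, against 34.1, 20.2 and 36.6 CPM in vehicle 1 to 3. The groups did not overlap and doxorubicin 3 was highest (2.38-fold; log2 fold change 1.25, SE 0.30, adjusted p = 0.0189), but the call ended when any 1 vehicle library was left out, at an adjusted p of up to 0.069. PLXNA1 (gene ID 100624579, chromosome 13, 73054434 to 73098786) had 22.5, 32.7, 34.1, 33.9 and 28.3 CPM in doxorubicin 1 to 5, against 20.3, 17.6 and 17.1 CPM in vehicle 1 to 3. Doxorubicin 1 was nearest to the vehicle libraries and the groups did not overlap (1.65-fold; log2 fold change 0.73, SE 0.18, adjusted p = 0.0188); leaving out any 1 vehicle library ended the call, at an adjusted p of up to 0.088. PLXNA4, the remaining class A plexin, did not pass, with 8.55 to 27.3 CPM in doxorubicin and 17.3 to 23.4 CPM in vehicle libraries.

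PLXNB2, a class B plexin that takes class 4 semaphorins as ligands, was among the most abundant guidance receptors. PLXNB2 (gene ID 110260603, chromosome 5, 390347 to 416805) had 114, 203, 261, 142 and 207 CPM in doxorubicin 1 to 5, against 89.6, 85.4 and 93.6 CPM in vehicle 1 to 3. The 3 vehicle libraries were close together, all doxorubicin libraries were above them, and doxorubicin 3 was highest (2.07-fold; log2 fold change 1.05, SE 0.26, adjusted p = 0.0215). The call ended when any 1 vehicle library was left out, at an adjusted p of up to 0.087. PLXNB1, the receptor of SEMA4D, had 54.8 to 150 CPM in doxorubicin and 99.8 to 118 CPM in vehicle libraries and did not pass. PLXND1, an endothelial receptor needed in mice for outflow tract and vessel patterning, had 197, 147, 117, 206 and 82.6 CPM in doxorubicin 1 to 5, against 109, 86.5 and 123 CPM in vehicle 1 to 3. Its groups overlapped and doxorubicin 5 was lowest of all 8 libraries (log2 fold change 0.50, SE 0.30, adjusted p = 0.231); without doxorubicin 5 it passed, at an adjusted p of 0.0437. PLXNC1, the receptor of SEMA7A, had 1.53, 5.51, 4.86, 3.11 and 2.55 CPM in doxorubicin 1 to 5, against 1.57, 1.66 and 1.35 CPM in vehicle 1 to 3. Doxorubicin 1 fell among the vehicle libraries (log2 fold change 1.20, SE 0.44, adjusted p = 0.0712), and the gene passed without doxorubicin 1 or without doxorubicin 5.

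Neuropilins are co-receptors that bind both class 3 semaphorins and VEGF, NRP1 mainly in arteries and NRP2 mainly in veins and lymphatics. NRP2 (gene ID 100622637, chromosome 15, 108974246 to 109092316) had 51.4, 53.7, 45.3, 61.8 and 44.96 CPM in doxorubicin 1 to 5, against 33.2, 26.98 and 37.3 CPM in vehicle 1 to 3. No doxorubicin library reached down to the vehicle libraries (1.58-fold; log2 fold change 0.66, SE 0.17, adjusted p = 0.0218); with any 1 vehicle library left out the gene no longer passed, at an adjusted p of up to 0.082. NRP1 had 241, 197, 192, 211 and 119 CPM in doxorubicin 1 to 5, against 256, 204 and 254 CPM in vehicle 1 to 3. Here doxorubicin 5 was lowest, doxorubicin 2 and 3 lay just below vehicle and doxorubicin 1 and 4 within the vehicle range (log2 fold change -0.31, SE 0.23, adjusted p = 0.326). The difference between the fold changes of NRP2 and NRP1 was not tested.

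Ranked by the mean over all 8 libraries, NRP1 had the highest level per length of all guidance genes, compared here as mean CPM per kilobase of the table's gene length (± SD, n = 5 and 3). It reached 26.1 ± 6.11 in doxorubicin and 32.4 ± 3.98 in vehicle libraries. SEMA3C, the leading class 3 semaphorin, came next with 25.6 ± 4.62 in doxorubicin and 29.5 ± 4.45 in vehicle libraries, a level whose spread overlaps that of NRP1. Next in that ranking came PLXND1 with 21.5 ± 7.55 in doxorubicin and 15.2 ± 2.62 in vehicle libraries and PLXNB2 with 23.4 ± 7.32 in doxorubicin and 11.3 ± 0.519 in vehicle libraries. Their order depends on the group, since PLXNB2 was above PLXND1 in doxorubicin libraries and below it in vehicle libraries. EFNA1 led the ephrins with 17.8 ± 2.59 in doxorubicin and 17.3 ± 2.38 in vehicle libraries. By the same mean, the leaders of the other families were lower per length. ROBO4 had 11 ± 4.31 in doxorubicin and 8.78 ± 0.348 in vehicle libraries. EPHB4 had 7.296 ± 0.837 in doxorubicin and 5.42 ± 0.908 in vehicle libraries. EPHA7 had 2.87 ± 0.454 in doxorubicin and 5.602 ± 1.19 in vehicle libraries, a vehicle level above that of EPHB4 by less than the spread. SEMA4C, leading classes 4 to 7, had 5.97 ± 1.91 in doxorubicin and 4.32 ± 0.197 in vehicle libraries. That lead rests on the table's gene lengths, 4570 bases for SEMA4C and 15427 for SEMA4D. Before division by length, SEMA4D had means of 54.2 CPM in doxorubicin and 48.1 CPM in vehicle libraries. SEMA4C had 27.3 and 19.8 CPM. Whether the table's lengths match the transcripts present was not tested for any gene ranked here. UNC5B had 5.79 ± 0.761 in doxorubicin and 3.24 ± 0.392 in vehicle libraries, while NTN4 of its family, with 4.697 ± 1.34 in doxorubicin and 4.18 ± 0.835 in vehicle libraries, was above it in vehicle.

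**Figure D3:**
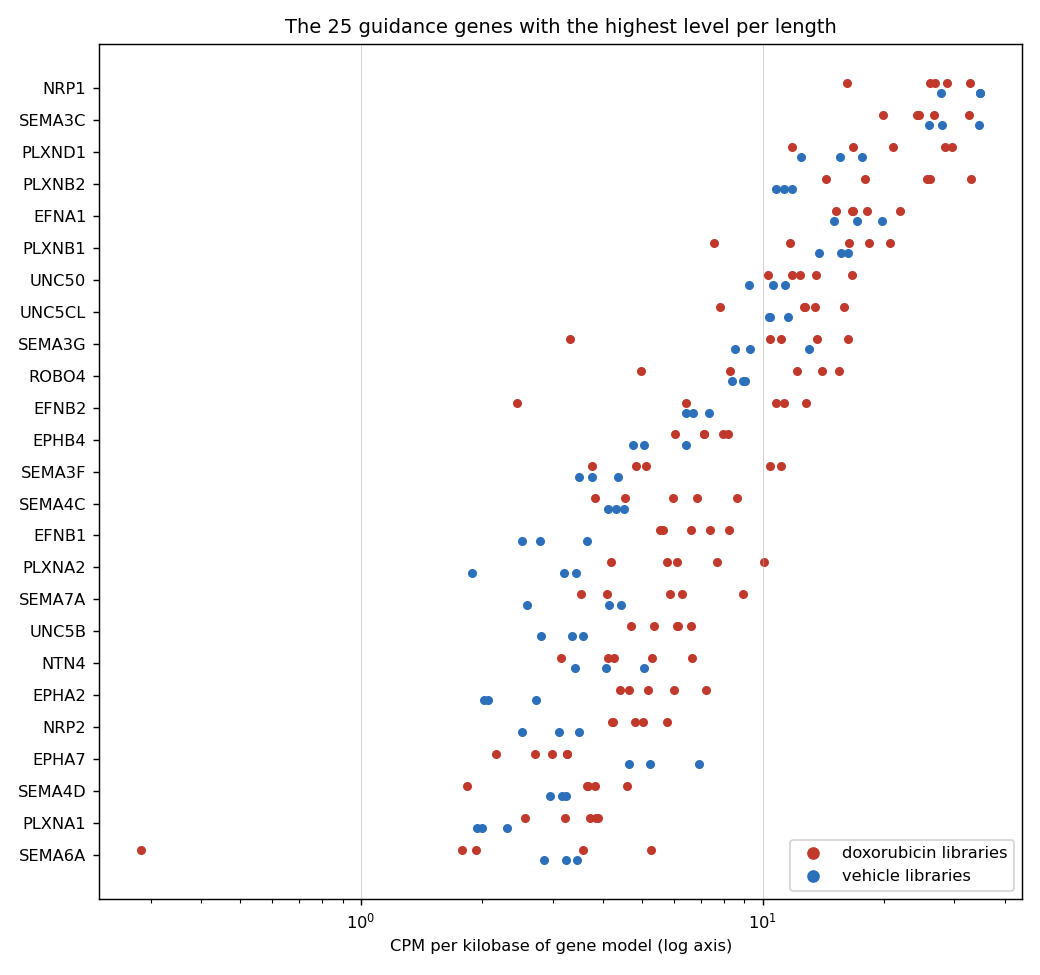
CPM per kilobase (log axis) in each doxorubicin library (upper points) and vehicle library (lower points) for the 25 guidance genes of highest mean level per length. NRP1 and SEMA3C lead with overlapping points, the groups of EFNB1, EPHA2 and UNC5B do not overlap, and 1 doxorubicin library of SEMA6A lies far to the left.

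Semaphorins of classes 4 to 7 are mostly transmembrane proteins. Class 4 held 3 of the 4 higher calls, among 6 tested class 4 genes with a median log2 fold change of 0.77. SEMA4A (gene ID 100157147, chromosome 4, 93865054 to 93892995), a ligand best known from T cell priming, had 3.11, 6.67, 7.42, 3.99 and 5.901 CPM in doxorubicin 1 to 5, against 1.14, 1.46 and 1.28 CPM in vehicle 1 to 3. The lowest doxorubicin library was well above the highest vehicle library (4.18-fold; log2 fold change 2.06, SE 0.36, adjusted p = 0.00794), and the call held whichever library was left out. SEMA4B (gene ID 110261555, chromosome 7, 55752854 to 55793982) had 18.01, 11.4, 14.01, 12.03 and 15.2 CPM in doxorubicin 1 to 5, against 6.501, 7.77 and 5.902 CPM in vehicle 1 to 3. The groups did not overlap (2.099-fold; log2 fold change 1.07, SE 0.21, adjusted p = 0.0104), and the call ended without vehicle 1 or vehicle 3, at an adjusted p of up to 0.059. SEMA4F (gene ID 100512275, chromosome 3, 68377669 to 68404662) had 2.35, 3.59, 4.296, 3.58 and 6.15 CPM in doxorubicin 1 to 5, against 2.14, 1.803 and 1.42 CPM in vehicle 1 to 3. Doxorubicin 5 was highest, doxorubicin 1 was only just above the vehicle libraries (2.23-fold; log2 fold change 1.16, SE 0.36, adjusted p = 0.0421), and the call ended when any 1 vehicle library was left out, or doxorubicin 2, 3 or 4, at an adjusted p of up to 0.149.

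The other class 4 members did not pass. SEMA4C, a ligand of PLXNB2, had 39.5, 20.7, 27.3, 31.3 and 17.5 CPM in doxorubicin 1 to 5, against 20.6, 19.8 and 18.8 CPM in vehicle 1 to 3. Doxorubicin 5 was the lowest library of all and the remaining doxorubicin libraries were above vehicle (log2 fold change 0.47, SE 0.25, adjusted p = 0.194); without doxorubicin 5 it passed, at an adjusted p of 0.0483. SEMA4D, the CD100 ligand of PLXNB1 that immune cells release, had 28.4 to 70.7 CPM in doxorubicin and 45.6 to 49.9 CPM in vehicle libraries, with doxorubicin 5 alone below vehicle. SEMA4G stayed between 1.90 and 3.33 CPM in doxorubicin and between 2.35 and 2.43 CPM in vehicle libraries.

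Class 6 semaphorins were mixed, with a median log2 fold change of -0.06 over 4 genes. SEMA6B (gene ID 110259360, chromosome 2, 74262303 to 74296386) had 9.88, 10.7, 11.4, 12.2 and 6.75 CPM in doxorubicin 1 to 5, against 4.93, 4.58 and 7.61 CPM in vehicle 1 to 3. Doxorubicin 5 lay below vehicle 3, so the groups overlapped (1.78-fold; log2 fold change 0.84, SE 0.26, adjusted p = 0.0435); the call ended when any 1 vehicle library was left out, or doxorubicin 1, 2, 3 or 4, at an adjusted p of up to 0.156. An uncharacterised locus overlaps SEMA6B on the opposite strand, and whether counting used the strand is not given. SEMA6A had 46.5, 17.02, 15.8, 31.4 and 2.5 CPM in doxorubicin 1 to 5, against 28.5, 25.2 and 30.4 CPM in vehicle 1 to 3. Doxorubicin 5 was far below and doxorubicin 1 above all other libraries, and it did not pass (log2 fold change -0.31, SE 0.65, adjusted p = 0.751). SEMA6C and SEMA6D did not pass either. SEMA6C had 9.45 to 19.1 CPM in doxorubicin and 10.7 to 16.02 CPM in vehicle libraries, and SEMA6D had 11.5 to 29.8 CPM in doxorubicin and 27.0 to 34.4 CPM in vehicle libraries.

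SEMA7A, a membrane-anchored semaphorin that also binds integrins, had 13.3, 22.2, 23.7, 15.4 and 33.6 CPM in doxorubicin 1 to 5, against 15.6, 9.78 and 16.7 CPM in vehicle 1 to 3. Doxorubicin 1 and 4 lay within the vehicle range and doxorubicin 5 was highest (log2 fold change 0.63, SE 0.31, adjusted p = 0.162). SEMA5B, a class 5 semaphorin with thrombospondin repeats, was low throughout, with 1.04, 1.52, 2.85, 1.504 and 0.6001 CPM in doxorubicin 1 to 5, against 0.5001, 0 and 0.64 CPM in vehicle 1 to 3. Its groups overlapped through doxorubicin 5 (log2 fold change 1.97, SE 0.83, adjusted p = 0.104). SEMA5A did not pass and ranged from 7.001 to 39.0 CPM in doxorubicin, wider than its 19.5 to 25.8 CPM in vehicle libraries.

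Class 3 semaphorins are the secreted ligands of neuropilins, and no tested one of the 6 passed (median log2 fold change 0.27). SEMA3F, which acts through NRP2, had 14.5, 40.2, 42.9, 19.8 and 18.7 CPM in doxorubicin 1 to 5, against 16.8, 13.5 and 14.5 CPM in vehicle 1 to 3. Doxorubicin 2 and 3 were more than 2 times as high as any vehicle library, while doxorubicin 1 lay among them (log2 fold change 0.87, SE 0.37, adjusted p = 0.106); without doxorubicin 1 the gene passed. SEMA3C, needed in mice for outflow tract septation, had 127, 129, 140, 104 and 171 CPM in doxorubicin 1 to 5, against 181, 147 and 137 CPM in vehicle 1 to 3. The groups overlapped and the fold change was small (log2 fold change -0.20, SE 0.19, adjusted p = 0.443). SEMA3D, which patterns coronary veins in mice, had 1.75, 3.28, 2.38, 2.39 and 15.95 CPM in doxorubicin 1 to 5, against 2, 2.22 and 3.27 CPM in vehicle 1 to 3. Doxorubicin 5 alone was high, the other libraries overlapped (log2 fold change 1.04, SE 0.75, adjusted p = 0.322), and the log2 fold change was -0.02 without doxorubicin 5. SEMA3G, an arterial endothelial semaphorin, had 80.3, 54.9, 51.5, 67.5 and 16.4 CPM in doxorubicin 1 to 5, against 64.4, 42.2 and 45.8 CPM in vehicle 1 to 3. Doxorubicin 5 was lowest and doxorubicin 1 and 4 were highest (log2 fold change 0.09, SE 0.41, adjusted p = 0.887). SEMA3A, which restrains sympathetic innervation of the mouse heart, stayed low, at 0.0519 to 3.60 CPM in doxorubicin and 0.693 to 2.28 CPM in vehicle libraries, and SEMA3B had 4.15 to 13.5 CPM in doxorubicin and 4.58 to 7.89 CPM in vehicle libraries.

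Ephrins of class A are lipid-anchored and those of class B are transmembrane. EFNB1 was the called ephrin. EFNB1 (gene ID 100624619, chromosome X, 54947339 to 54961403) had 24.9, 29.7, 25.3, 33.2 and 36.9 CPM in doxorubicin 1 to 5, against 11.3, 16.4 and 12.5 CPM in vehicle 1 to 3. All doxorubicin libraries were above all vehicle libraries (2.24-fold; log2 fold change 1.16, SE 0.20, adjusted p = 0.00762), and the call held whichever library was left out. EFNB2, the arterial ephrin, had 10.8, 11.3, 6.44, 12.8 and 2.45 CPM in doxorubicin 1 to 5, against 7.36, 6.73 and 6.47 CPM in vehicle 1 to 3. Doxorubicin 1, 2 and 4 were above vehicle, doxorubicin 3 just below and doxorubicin 5 lowest (log2 fold change 0.35, SE 0.44, adjusted p = 0.58).

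Among class A ephrins, EFNA1, an endothelial ligand of EPHA2, had 34.4, 23.8, 26.2, 28.5 and 26.1 CPM in doxorubicin 1 to 5, against 23.6, 26.9 and 31 CPM in vehicle 1 to 3. The groups overlapped almost fully (log2 fold change 0.03, SE 0.16, adjusted p = 0.895). EFNA2 had 2.02, 2.02, 2.94, 1.82 and 3.001 CPM in doxorubicin 1 to 5, against 1.43, 1.66 and 0.924 CPM in vehicle 1 to 3. Its groups did not overlap, but the difference did not pass (log2 fold change 0.81, SE 0.36, adjusted p = 0.115). EFNA3 was near the filter's cut-off, with 0.819, 0.253, 0.7005, 0.363 and 0.6001 CPM in doxorubicin 1 to 5, against 0.143, 0.485 and 0 CPM in vehicle 1 to 3, and did not pass (log2 fold change 1.35, SE 0.84, adjusted p = 0.254). EFNA5 had 13.2 to 26.5 CPM in doxorubicin and 20.7 to 24.2 CPM in vehicle libraries.

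Eph receptors gave calls in both directions. EPHA2 (gene ID 100522873, chromosome 6, 75251465 to 75279364), a receptor found on endothelium and epithelium, had 18.7, 19.7, 25.4, 21.9 and 30.5 CPM in doxorubicin 1 to 5, against 8.57, 8.74 and 11.5 CPM in vehicle 1 to 3. Every doxorubicin library was above every vehicle library (2.42-fold; log2 fold change 1.27, SE 0.21, adjusted p = 0.0072), and the call held whichever library was left out. EPHA7 (gene ID 100154222, chromosome 1, 60771567 to 60944092) was the only guidance gene called lower and had 23.1, 25.2, 25.1, 20.96 and 16.8 CPM in doxorubicin 1 to 5, against 53.6, 35.9 and 40.5 CPM in vehicle 1 to 3. All doxorubicin libraries were below all vehicle libraries, with doxorubicin 5 lowest and vehicle 1 highest (log2 fold change -0.96, SE 0.18, adjusted p = 0.0098); without vehicle 1 it no longer passed, at an adjusted p of 0.054. EPHB3 (gene ID 100337659, chromosome 13, 122467561 to 122488296), a class B receptor that binds ephrin-B1, had 2.56, 5.86, 8.73, 1.504 and 24.9 CPM in doxorubicin 1 to 5, against 1.5, 1.18 and 0.569 CPM in vehicle 1 to 3. Doxorubicin 5 was far above the rest and doxorubicin 4 practically level with vehicle 1 (8.01-fold; SE of the log2 fold change 0.93, adjusted p = 0.0435). The fold was 4.31 without doxorubicin 5, and the call ended when any 1 vehicle library was left out, or doxorubicin 2 or 3, at an adjusted p of up to 0.144.

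EPHB4, the venous receptor of ephrin-B2, had 31.6, 31.7, 26.9, 36.3 and 35.3 CPM in doxorubicin 1 to 5, against 22.4, 21.01 and 28.6 CPM in vehicle 1 to 3. Doxorubicin 3 fell below vehicle 3 and the others were above vehicle (log2 fold change 0.43, SE 0.16, adjusted p = 0.0787). EPHB6, which lacks kinase activity, had 3.55, 6.37, 9.15, 7.73 and 8.35 CPM in doxorubicin 1 to 5, against 2.21, 6.59 and 3.48 CPM in vehicle 1 to 3. The groups overlapped through vehicle 2 (log2 fold change 0.78, SE 0.40, adjusted p = 0.174). EPHA4 had 9.24 to 18.3 CPM in doxorubicin and 7.70 to 11.02 CPM in vehicle libraries, and EPHA3, EPHB1 and EPHB2 were low, with at most 1.36 CPM in doxorubicin and at most 5.001 CPM in vehicle libraries. None of these 4 passed.

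Slits are secreted ligands of roundabouts, and the largest fold change of all called guidance genes was that of ROBO1. ROBO1 (gene ID 100517310, chromosome 13, 175348223 to 176479482) had 14.4, 15.7, 61.9, 4.98 and 55.2 CPM in doxorubicin 1 to 5, against 1.43, 2.01 and 0.995 CPM in vehicle 1 to 3. All doxorubicin libraries were above vehicle, but they were spread widely, with doxorubicin 3 and 5 highest and doxorubicin 4 lowest (20.5-fold; log2 fold change 4.36, SE 0.90, adjusted p = 0.0124). Leaving out 1 library at a time gave folds between 15.2 and 24.9, and the gene no longer passed without vehicle 1 or vehicle 3, at an adjusted p of up to 0.061. SLIT3 (gene ID 100513444, chromosome 16, 54551536 to 55221427), the slit best known in heart and vessel development, had 16.5, 18.5, 41.6, 10.6 and 50.7 CPM in doxorubicin 1 to 5, against 10, 2.497 and 4.84 CPM in vehicle 1 to 3. The same doxorubicin libraries, 3 and 5, were highest, and doxorubicin 4 was only just above vehicle 1 (4.77-fold; log2 fold change 2.25, SE 0.62, adjusted p = 0.0299). The call ended when any 1 vehicle library was left out, or doxorubicin 3, at an adjusted p of up to 0.109, and the fold was 7.49 without vehicle 1. An opposite-strand locus and, on the same strand, MIR218B overlap SLIT3.

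The other genes of the family did not pass. ROBO4, the endothelial roundabout, had 52.9, 46.02, 31.2, 58.4 and 18.8 CPM in doxorubicin 1 to 5, against 34.01, 31.6 and 33.8 CPM in vehicle 1 to 3. Doxorubicin 1, 2 and 4 were above vehicle and doxorubicin 3 and 5 below it (log2 fold change 0.32, SE 0.32, adjusted p = 0.475). ROBO3, which lies next to ROBO4 on chromosome 9, had 0.873, 0.707, 0.1401, 0.83 and 0.3501 CPM in doxorubicin 1 to 5, against 1, 1.59 and 0.995 CPM in vehicle 1 to 3. All doxorubicin libraries were below vehicle, at levels near the filter's cut-off (log2 fold change -1.04, SE 0.57, adjusted p = 0.194). SLIT2 and ROBO2, the remaining tested genes of the family, had log2 fold changes of -0.12 and 0.06.

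Netrin-1 is a secreted laminin-like protein, and UNC5 receptors mediate its repulsive signal. NTN1 (gene ID 733599, chromosome 12, 54089444 to 54292191) had 11.6, 11.2, 15.7, 12.6 and 8.15 CPM in doxorubicin 1 to 5, against 7.501, 5.41 and 5.404 CPM in vehicle 1 to 3. Doxorubicin 5 was lowest of its group but still above vehicle (1.94-fold; log2 fold change 0.96, SE 0.24, adjusted p = 0.0222), and with any 1 vehicle library left out the gene no longer passed, at an adjusted p of up to 0.096. Opposite-strand loci and a same-strand tRNA locus overlap NTN1. UNC5B (gene ID 733600, chromosome 14, 74120055 to 74208055), the endothelial UNC5 receptor, had 45.9, 42.4, 32.5, 42.7 and 37.2 CPM in doxorubicin 1 to 5, against 24.8, 19.5 and 23.2 CPM in vehicle 1 to 3. The groups were well apart (1.79-fold; log2 fold change 0.84, SE 0.16, adjusted p = 0.0102), and the call ended only without vehicle 3, at an adjusted p of 0.054. UNC5A had 0.109, 0.9599, 1.21, 0.259 and 1.85 CPM in doxorubicin 1 to 5, against 0.0714, 0.347 and 0.213 CPM in vehicle 1 to 3. Doxorubicin 2, 3 and 5 were above vehicle and doxorubicin 1 and 4 were not (log2 fold change 2.03, SE 0.95, adjusted p = 0.136). UNC5C had 2.24, 1.57, 1.59, 1.19 and 1.7 CPM in doxorubicin 1 to 5, against 1.79, 0.347 and 0.853 CPM in vehicle 1 to 3. The groups overlapped through vehicle 1 (log2 fold change 0.73, SE 0.51, adjusted p = 0.303). NTN4, a basement membrane netrin, had 13.1 to 27.9 CPM in doxorubicin and 14.2 to 21.1 CPM in vehicle libraries, and NTN5 had 2.10 to 4.58 CPM in doxorubicin and 1.85 to 2.84 CPM in vehicle libraries. UNC50 and UNC5CL, the matches of the symbol rule from outside the family, had log2 fold changes of 0.32 and 0.21 and did not pass.

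In the doxorubicin group, the guidance genes split by library in more than 1 way. ROBO1, SLIT3 and PLXNB2 were highest in doxorubicin 3 or 5, EPHB3 and SEMA3D in doxorubicin 5. SEMA6A, SEMA3G, EFNB2, ROBO4, PLXND1 and NRP1 were among those lowest in doxorubicin 5. Other genes described above as endothelial went otherwise. EPHA2 was highest in doxorubicin 5, EFNA1 was lowest in doxorubicin 2 and UNC5B in doxorubicin 3. Doxorubicin 5 was the lowest doxorubicin library for 26 of the 58 tested guidance genes, or 44.8%, beside 33.1% of all genes tested. It was the highest for 15 of the 58, or 25.9%, again beside 33.1% of all genes tested. It lay below all vehicle libraries for 20 of the 58, or 34.5%, beside 42.5% of all genes tested. It lay above all vehicle libraries for 30 of the 58, or 51.7%, beside 40.1% of all genes tested, and each of the other doxorubicin libraries did so for 35 to 39 of the 58. The library medians over the 58, as log2(CPM + 0.5) relative to the vehicle mean, nevertheless lay close together, from 0.36 to 0.48.

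**Figure D4:**
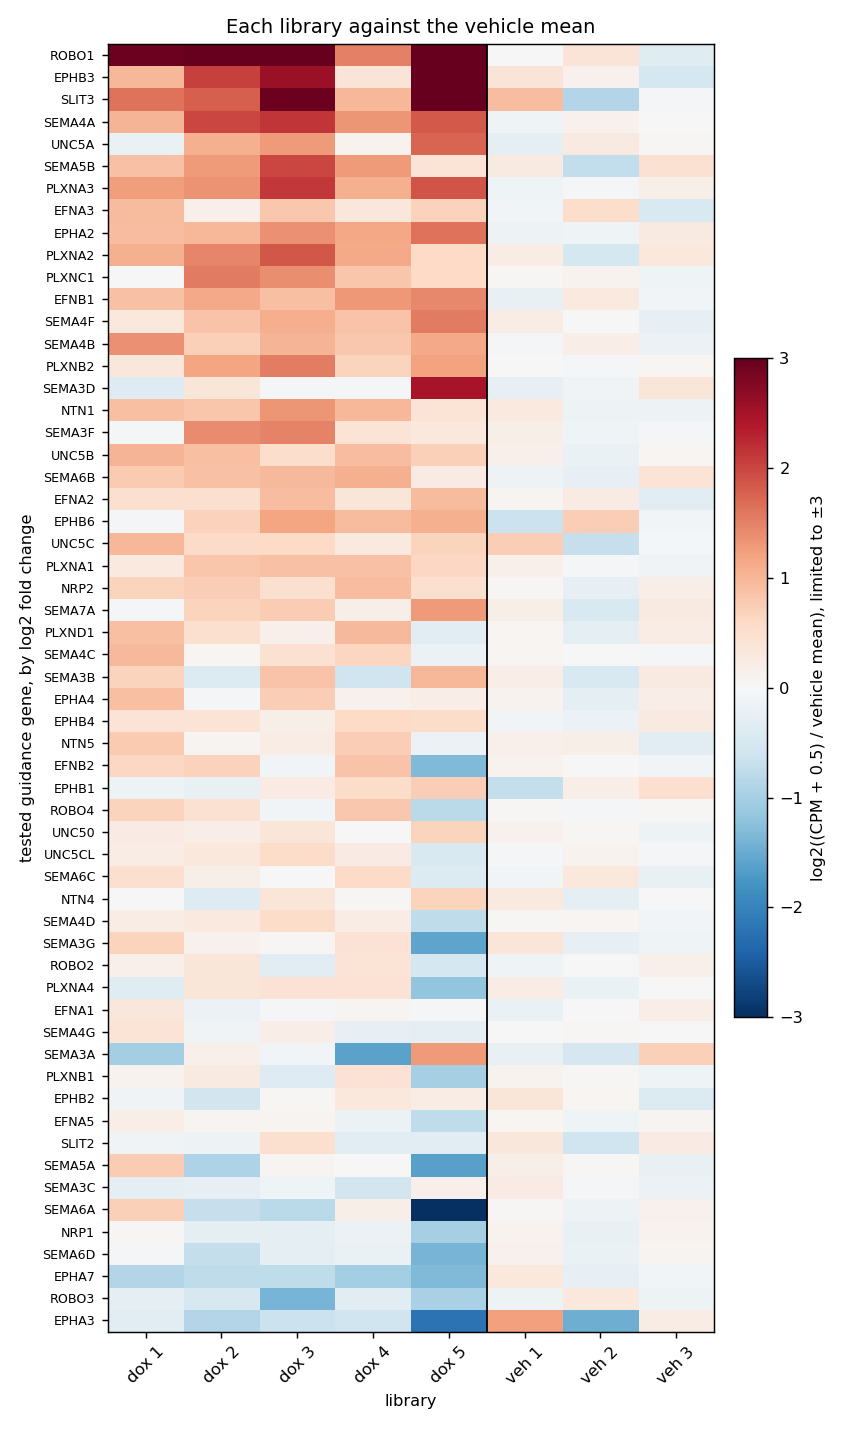
Level of each tested guidance gene in every library as the difference in log2(CPM + 0.5) from the vehicle mean, doxorubicin libraries left and vehicle libraries right. Colours are limited to 3 in either direction; SLIT3 is darkest in doxorubicin 3 and 5, and doxorubicin 5 is the lowest library for SEMA6A.

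Markers of several cell types also differed in doxorubicin 3 and 5, the libraries in which ROBO1 and SLIT3 were highest. Cardiomyocyte markers summed to 44240 CPM in doxorubicin 3 and 36277 CPM in doxorubicin 5, the lowest of the 8 libraries. All doxorubicin sums were below all vehicle sums, but the highest, 66483 CPM in doxorubicin 4, was practically level with the 66496 CPM of vehicle 1. RYR2 was the 1 of 9 called lower. MYH7, the most abundant marker, did not pass (adjusted p = 0.443), and TNNT2 alone had a positive log2 fold change (0.63, adjusted p = 0.117). Fibroblast markers summed to 7309 CPM in doxorubicin 3 and 31584 CPM in doxorubicin 5. Over the group they summed to 2613 to 31584 CPM in doxorubicin, against 1370 to 1588 CPM in vehicle libraries. Most of the doxorubicin 5 sum was COL3A1 (11487 CPM), COL1A2 (7563 CPM), COL1A1 (6607 CPM) and POSTN (4544 CPM). Of the 9 markers, 4 were called higher (COL1A1, COL3A1, POSTN and LUM) and 1 lower. The lower one was PDGFRA (log2 fold change -1.13, adjusted p = 0.0355). DCN and DPT did not pass, at -0.04 and -0.13, nor did COL1A2 and TCF21, at 3.09 and 0.73. Smooth muscle and pericyte markers summed to 5461 to 10080 CPM in doxorubicin and 4849 to 5443 CPM in vehicle libraries, with 3 of 9 higher and 1 lower. Most of that sum was DES, which cardiomyocytes also express and which did not pass (adjusted p = 0.152); without it the sums were 733 to 4482 CPM in doxorubicin, highest in doxorubicin 5, and 654 to 1270 CPM in vehicle libraries. Endothelial markers summed to 994 CPM in doxorubicin 3 and 628 CPM in doxorubicin 5, and to 628 to 1675 CPM in doxorubicin against 1318 to 1669 CPM in vehicle libraries, with 1 of 10 higher and 1 lower. Macrophage markers summed to 240 to 732 CPM in doxorubicin and 142 to 190 CPM in vehicle libraries, with 5 of 8 higher. T and NK cell markers, with 5 of 6 higher, summed to 22.05 to 37.2 CPM in doxorubicin and 6.501 to 10.7 CPM in vehicle libraries. Adipocyte markers, with 2 of 2 tested lower, summed to 36.8 to 142 CPM in doxorubicin and 257 to 411 CPM in vehicle libraries. Nearly all of that sum was FABP4, with 35.7 to 142 CPM in doxorubicin and 252 to 388 CPM in vehicle libraries. ADIPOQ, the other tested marker, had means of only 0.113 CPM in doxorubicin and 8.40 CPM in vehicle libraries. PLIN1 and LEP were not tested, so the sum mainly follows FABP4. Venous markers had 1 of 4 and lymphatic markers 1 of 5 called lower. Beside these counts, 13.6% of all genes tested were called higher and 11.3% lower. The part of all these markers in the guidance gene results was not tested.

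Neural sources were also listed, since the genes are named for axons. Schwann cell markers summed to 38.7 to 60.3 CPM in doxorubicin and 47.2 to 65.3 CPM in vehicle libraries, with 1 of 7 lower. Of the neuron markers, TH and DBH, which define sympathetic neurons, had 0 reads in every library, and the list summed to 4.51 to 87.4 CPM in doxorubicin, highest in doxorubicin 5, against 2.57 to 3.91 CPM in vehicle libraries, with 1 of 3 tested genes higher. UCHL1 carried most of that sum and did not pass (adjusted p = 0.0688); without it the sums were 0.808 to 5.901 CPM in doxorubicin and 0.485 to 0.995 CPM in vehicle libraries. Arterial endothelial markers, with 0 of 6 called, summed to 46.4 to 114 CPM in doxorubicin and 66.0 to 88.1 CPM in vehicle libraries, lowest in doxorubicin 5 as EFNB2 and SEMA3G were.

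**Figure D5:**
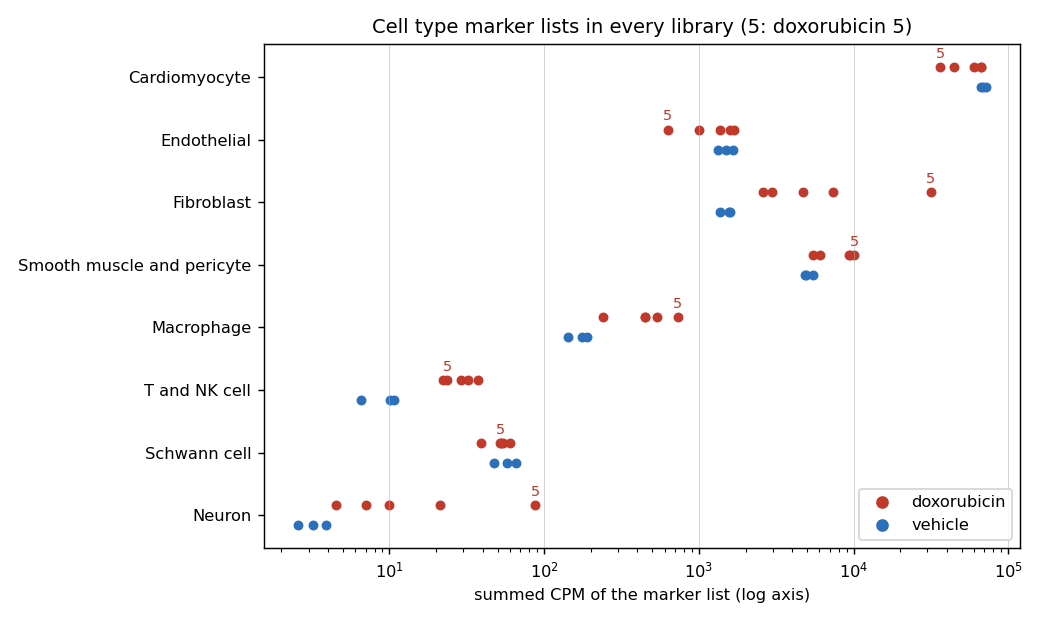
Summed CPM of 8 cell type marker lists (log axis; DES and UCHL1 included) in each doxorubicin library (upper points, doxorubicin 5 marked) and vehicle library (lower points). Fibroblast and macrophage sums are higher in all 5 doxorubicin libraries, and doxorubicin 5 has the highest fibroblast and the lowest endothelial sum.

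Known partners could be read side by side, for 11 ligand and receptor pairs written down after the values were seen. In 3 pairs both genes were higher in doxorubicin hearts, namely SLIT3 with ROBO1, NTN1 with UNC5B, and EFNB1 with EPHB3. In 5 pairs the receptor alone passed: EPHA2 without EFNA1, PLXNB2 without SEMA4C, NRP2 without SEMA3C or SEMA3F, and PLXNA2 without SEMA6A. In the remaining 3, EFNB2 with EPHB4, SEMA4D with PLXNB1 and SEMA7A with PLXNC1, neither did. As a difference between passing and not passing was not tested, this gives no order among them. The counts describe these 11 pairs only, since they were chosen with the values known and other pairings were not listed. The called ligands SEMA4A, SEMA4B, SEMA4F and SEMA6B and the called receptors PLXNA1, PLXNA3 and EPHA7 are in no listed pair. NRP2 entered with both SEMA3C and SEMA3F. The list could therefore hardly show a ligand called alone. Among single genes, 13.6% of all genes tested were called higher.

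Genes that act beside or below these receptors were also listed. Both parts of this list were chosen with earlier results of these data known. Their shares below therefore describe the listed genes only, and their difference from all genes was not tested. Of 66 listed partners, 56 were tested, with a median log2 fold change of 0.38 beside 0.02 for all genes tested. Of the 56, 13 (23.2%) were higher and 4 (7.14%) lower, beside 13.6% and 11.3% of all genes tested. Among 12 tested co-receptors and further ligands, 2 (16.7%) were higher and 2 (16.7%) lower, near those shares of all genes. The adhesion molecule NCAM1 (log2 fold change 1.33, adjusted p = 0.0109) and the heparan sulfate proteoglycan GPC1 (0.73, adjusted p = 0.0473) were higher. The L1-family adhesion molecule CHL1 (-1.91, adjusted p = 0.0427) and the neogenin ligand RGMB (-0.65, adjusted p = 0.0465) were lower. The netrin receptor neogenin, NEO1, did not pass (log2 fold change -0.03), and DCC had 0 reads in vehicle libraries and was not tested.

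Of 44 tested intracellular partners, 11 (25%) were higher and 2 (4.55%) lower, beside 13.6% and 11.3% of all genes tested, with a median of 0.39. Those higher included genes of actin and microtubule control below semaphorin receptors. DPYSL3, of the collapsin response mediator family, had a log2 fold change of 1.74 (adjusted p = 0.00525), and MICAL1, an oxidase of actin that binds class A plexins, had 1.71 (adjusted p = 0.0132). LIMK1, a kinase that phosphorylates cofilin, had 1.41 (adjusted p = 0.012), and CFL1, cofilin itself, had 1.94 (adjusted p = 0.0108). RGS3, FES, GIPC1, LIMK2, PAK3, VAV3 and FARP1 were also higher. PAK2 (-0.65, adjusted p = 0.0423) and the adaptor NCK1 (-0.46, adjusted p = 0.0466) were lower, and the GTPases RHOA and RAC1 did not pass, at 0.13 and 0.06.

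The 12 guidance genes below the filter had few reads in total. EPHA10 had 81 reads in doxorubicin 5, 2 in doxorubicin 1 and 0 in the remaining 6 libraries; it overlaps CDCA8 on the opposite strand. PLXNB3 had 8, 8, 32, 10 and 5 reads in doxorubicin 1 to 5, against 1, 0 and 8 in vehicle 1 to 3. EFNA4 had 1, 2, 9, 6 and 30 reads in doxorubicin 1 to 5, against 0, 1 and 0 in vehicle 1 to 3. EPHA5 had 2 to 9 reads in doxorubicin and 6 to 18 in vehicle libraries. EPHA1, EPHA6, EPHA8, SEMA3E, EFNB3, NTN3, UNC5D and SLIT1 had 0 to 14 reads in doxorubicin and 0 to 5 in vehicle libraries. With no filter all 70 genes could be tested, and none of these 12 passed. EPHA1, PLXNB3 and SLIT1 also entered the fits without 1 vehicle library and did not pass in any of the 3.

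By position on the pig assembly Sscrofa11.1, 13 of the 70 guidance genes lie on chromosome 13, among them the called genes PLXNA1, EPHB3 and ROBO1, and 7 lie on chromosome 9. ROBO1 and ROBO2 are both on chromosome 13, yet ROBO1 was called higher and ROBO2, with a log2 fold change of 0.06, did not pass. EFNB1 and PLXNA3, each called whichever library was left out, lie on the X chromosome with PLXNB3.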

How the data were processed

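Messenger RNA libraries of heart tissue were made with a SMARTER kit, per the labels' protocols. The authors deposited raw counts per gene, with 1 column a library, matched by titles. Aligner, counter and strand setting: not given in the sources used here, so reads of overlapping genes cannot be told apart. The test was run with edgeR 4.0.16 (R 4.3.3): filterByExpr (minimum count 10, minimum total 15), TMM scaling and the robust quasi-likelihood test, two-sided, on treatment alone in all 8 libraries. The scripts were tested on simulated data. The 70 genes matched RefSeq gene IDs of Sscrofa11.1 with the same coordinates. Named with every library's value were all called genes and, by family, up to 2 further genes of smallest p and that of highest level per length, plus SEMA3G, EFNB2 and SEMA6A, PLXNB3, EPHA10 and EFNA4, added after their values were seen. Members, gene lists and marker lists were chosen with earlier results of these data known. Alternatives used limma 3.58.1 and DESeq2 1.42.0.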

Additional observations from a re-analysis of the deposited data

Results flagged for a closer look

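SEMA3D in doxorubicin 5, at 16 CPM, was far from the rest of its group, whose next highest library had 3.28 CPM. The gap made up 0.892 of the group's range, above Dixon's critical value of 0.71 for 5 samples. Of the 41 genes given with every library's value and tested this way in the doxorubicin group, 4 passed that value. Chance gives about 1 in 20, but the 41 include genes added after their values were seen, and 3 of the 4 are such genes. The share that passed therefore cannot be set against chance. The other 3 were below the filter: EPHA10 in doxorubicin 5 at 4.05 CPM, with 0.109 CPM in the next library; PLXNB3 in doxorubicin 3 at 1.49 CPM, with 0.519 CPM in the next; and EFNA4 in doxorubicin 5 at 1.5 CPM, with 0.42 CPM in the next.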

How the results depend on the processing

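No named gene whose difference passed changed direction under any alternative. The median log2 fold change of the tested guidance genes was 0.80 with library size alone and 0.56 with no filter, where the medians of all genes tested moved to 0.38 and 0.21. Limma voom with quality weights called 8087 genes in all and 28 guidance genes higher and 3 lower; the cause was not tested. Leaving out 1 library at a time gave 649 to 4737 calls over all genes, 4 to 19 guidance genes higher, 0 to 1 lower and medians of 0.37 to 0.62. The lowest counts came without vehicle 1 or vehicle 3. Without vehicle 2, which also leaves 2 vehicle libraries, 1969 genes were called. DESeq2 called 18 higher and 1 lower, and RLE factors, a CPM filter, TMM without the 20 most abundant genes and a length trend removed each gave 16 and 1. With no filter, which tests more genes, 12 were higher and 1 lower (EPHB3, SEMA4F, SEMA6B and SLIT3 lost), and with a gene density trend removed, both trends chosen after seeing the data, 13 and 1 (EPHB3, PLXNB2, SEMA4F and SEMA6B lost, PLXNC1 gained). A fit with the replicate number as a block gave 3638 calls, 14 higher and 1 lower, a median of 0.43, and lost PLXNA1 and SEMA4F. The numbers were not taken to pair the samples, since deviations of same-numbered libraries correlated at 0.0425, 0.00205 and -0.00312, and not every library correlated best with its own number. Low depth limits the tests of genes near the filter's cut-off.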
